A study of Homo sapiens with 8 samples.

Results

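The aminoacyl-tRNA synthetases are the enzymes that load each transfer RNA (tRNA) with its amino acid before translation. The members were listed by gene symbol and comprise 36 of the 65962 genes in the expression table: 20 genes for cytosolic enzymes and 16 for mitochondrial enzymes, the latter with symbols that end in 2. RNA-seq was performed on A673 cells, an established Ewing Sarcoma line that carries the EWS/Fli1 fusion oncoprotein. Cells received vehicle (DMSO) in 4 samples and JIB-04, an inhibitor of Jumonji-domain histone demethylases, at 2 μM in another 4, and RNA was collected after 36 hours. All samples come from this 1 line, and the methods give treatment in quadruplicate without saying whether these were separate cultures, so that the p-values below measure the spread between these samples.

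Each synthetase recognizes an amino acid and the tRNAs that carry it, joins them at the expense of ATP, and in many cases removes amino acids that were attached in error. Human cells use distinct nuclear genes for most of the cytosolic and mitochondrial enzymes, whereas GARS and KARS each encode both forms. Several cytosolic enzymes are held in a multi-synthetase complex together with scaffold proteins. Genes of cytosolic synthetases are also known targets of ATF4, a transcription factor that is induced when amino acids are scarce or protein folding is disturbed.

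Expression was measured as FPKM (fragments per kilobase of transcript, scaled to the mapped library size), which corrects for gene length and so permits levels of different genes to be set side by side. The groups were compared with limma on log2(FPKM + 0.5) for all 17460 genes that averaged 1 FPKM or more. A gene is called higher or lower where the p adjusted by Benjamini-Hochberg was below 0.05, each fold change is on that log2 scale, and its error is a standard error (SE). All 36 synthetase genes passed the filter on level. Total FPKM lay between 1346289 and 1370436 for vehicle and between 1175407 and 1237186 for JIB-04. Absolute read depth is not known from FPKM, and relative depth, taken from the steps between low values, ranged from 0.824 to 1 for vehicle and from 0.766 to 0.926 for JIB-04. The Ewing Sarcoma markers CD99, NKX2-2, NR0B1, FLI1, STEAP1 and CCND1 were all expressed, with a summed level of 2941 to 3217 FPKM in vehicle and 1745 to 2200 FPKM with JIB-04. Of these 6 markers, FLI1 was higher, CD99, NKX2-2, CCND1 and STEAP1 were lower and NR0B1 missed the threshold. Of 8 markers of other cell types, 4 passed the filter (KRT8 and SNAP25 higher and KRT18 lower with JIB-04, and ITGAM only through its JIB-04 level, at means of 0.295 and 2.39 FPKM). The summed level of the 8 was 321 to 343 against 324 to 340 FPKM. Most of this sum was KRT18, at means of 302 and 243 FPKM, so that it hides the rises of KRT8 (23.2 and 71.5 FPKM) and SNAP25 (4.17 and 15.4 FPKM). MYOD1, a defining gene of muscle, averaged 0 and 0.00741 FPKM, and PTPRC, a defining gene of blood cells, averaged 0.021 and 0.0475 FPKM. In RNA from whole cultures, fewer cells that express a gene and less of its RNA per cell cannot be told apart.

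JIB-04 split the synthetase genes. Of the 20 cytosolic genes, 5 were higher (WARS, GARS, CARS, YARS and IARS), 10 were lower and the remaining 5 missed the threshold, and none changed as much as 2-fold. Of the 16 mitochondrial genes, 3 were higher (YARS2, HARS2 and FARS2), 9 were lower and the remaining 4 missed it, and EARS2, SARS2 and AARS2 fell more than 2-fold. Of all genes tested, 34.2% were called higher and 38.0% lower, 72.2% in either direction. All JIB-04 samples were above all vehicle samples in 5 cytosolic and 3 mitochondrial genes and below them in 9 and 9, beside 31.9% and 35.4% of all genes. The shares of synthetase genes called therefore have to be read against a transcriptome in which most genes changed. The median log2 fold change was -0.11 for cytosolic and -0.28 for mitochondrial synthetases beside -0.07 for all genes tested. Rescaling FPKM to TPM (the same values brought to a common total per sample) shifted the median of all genes upward by 0.15, and with it 9 cytosolic genes were higher and 8 lower, 4 mitochondrial genes were higher and 8 lower, and 7061 of all genes were higher and 5424 lower. A call with a fold change smaller than that shift has to be read against it. Among the called genes these are IARS, which was higher in every alternative run, and KARS, which turned to a positive value with TPM. NARS and MARS2, with fold changes larger than the shift, also lost their calls with TPM (limma adjusted p of 0.499 and 0.47).

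Summed over the 20 cytosolic genes, expression was 4606 to 4808 FPKM in vehicle and 4373 to 4609 FPKM with JIB-04, and the groups overlapped. As a share of all FPKM the same sum was 0.341% to 0.357% in vehicle and 0.370% to 0.373% with JIB-04, so the sum and the share moved in opposite directions. The 16 mitochondrial genes summed to 721 to 789 FPKM in vehicle and 570 to 595 FPKM with JIB-04, or 0.0534% to 0.0576% and 0.0466% to 0.0506% of all FPKM. The mitochondrial sum was thus lower on either scale, without overlap. Messenger RNAs encoded by the mitochondrial genome moved the same way, from 9.60% to 10.2% of all FPKM in vehicle to 3.60% to 4.33% with JIB-04, and their part in the FPKM of the synthetases was not tested.

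The cytosolic enzymes for tryptophan, glycine and cysteine showed the largest rises. WARS (ENSG00000140105, chr14:100333788-100376805, GRCh38, GENCODE 29), the tryptophanyl-tRNA synthetase, which is also induced by interferon, was at 198, 210, 207 and 194 FPKM in vehicle and at 369, 358, 347 and 349 FPKM with JIB-04. All JIB-04 samples were above all vehicle samples, with means of 202 ± 7.42 and 356 ± 10.1 FPKM (SD, n = 4) and a log2 fold change of 0.81 ± 0.04 (limma adjusted p = 1.2e-07). GARS (ENSG00000106105, chr7:30594681-30634033), which charges glycine tRNAs in both compartments, was at 297, 298, 290 and 302 FPKM in vehicle and at 466, 477, 467 and 487 FPKM with JIB-04. The groups were again apart, and the log2 fold change was 0.68 ± 0.03 (limma adjusted p = 9.33e-08). CARS (ENSG00000110619, chr11:3000922-3057613), the cysteine enzyme, was at 54.1, 59.2, 56.4 and 53.8 FPKM in vehicle and at 71.0, 75.4, 73.1 and 75.2 FPKM with JIB-04, a log2 fold change of 0.40 ± 0.05 (limma adjusted p = 4.77e-05).

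The other cytosolic rises were smaller. YARS, for tyrosine, was at 259, 279, 273 and 261 FPKM in vehicle and at 297, 303, 318 and 322 FPKM with JIB-04 (log2 fold change 0.21 ± 0.04, limma adjusted p = 0.00141). IARS, for isoleucine, was at 354, 383, 364 and 352 FPKM in vehicle and at 398, 396, 388 and 390 FPKM with JIB-04 (log2 fold change 0.11 ± 0.04, limma adjusted p = 0.0177). The groups of either gene did not overlap, although for IARS the highest vehicle sample was close to the lowest JIB-04 sample. In the exact two-sided permutation test over the 8 samples, each synthetase gene without overlap reached p = 0.0286, the smallest value that 4 against 4 samples can give.

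The largest cytosolic falls were in the enzymes for glutamine, phenylalanine, alanine and aspartate. QARS (ENSG00000172053, chr3:49095932-49105135), the glutamine enzyme, was at 178, 176, 175 and 169 FPKM in vehicle and at 83.7, 89.5, 99.6 and 87.9 FPKM with JIB-04. JIB-04 samples averaged 51.6% of vehicle, with a log2 fold change of -0.95 ± 0.05 (limma adjusted p = 3.58e-07). The phenylalanine enzyme is built from alpha and beta subunits encoded by FARSA and FARSB, and both transcripts fell. FARSB (ENSG00000116120, chr2:222570536-222656337) was at 90.2, 102, 99.5 and 105 FPKM in vehicle and at 56.1, 54.9, 57.4 and 57.7 FPKM with JIB-04 (log2 fold change -0.80 ± 0.05, limma adjusted p = 9.48e-07). FARSA was at 225, 209, 209 and 202 FPKM in vehicle and at 145, 147, 123 and 129 FPKM with JIB-04 (log2 fold change -0.64 ± 0.07, limma adjusted p = 1.76e-05). Vehicle and JIB-04 samples were apart for either subunit.

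AARS, the alanine enzyme, was at 237, 242, 235 and 224 FPKM in vehicle and at 156, 150, 146 and 155 FPKM with JIB-04 (log2 fold change -0.63 ± 0.04, limma adjusted p = 6.64e-07). DARS, the aspartate enzyme, was at 84.8, 98.7, 97.6 and 109 FPKM in vehicle and at 72.5, 61.1, 59.2 and 66.2 FPKM with JIB-04 (log2 fold change -0.59 ± 0.09, limma adjusted p = 0.000224). No sample of either gene overlapped between the groups. MARS, for methionine, EPRS, which joins the glutamate and proline enzymes in 1 protein, and VARS, for valine, were also lower without overlap, with log2 fold changes of -0.49 ± 0.09, -0.46 ± 0.09 and -0.32 ± 0.05 and limma adjusted p of 0.00061, 0.00114 and 0.000527.

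The calls of NARS and KARS, for asparagine and lysine, were less firm. NARS was at 334 to 414 FPKM in vehicle and 277 to 363 FPKM with JIB-04, so that the groups overlapped, and its log2 fold change of -0.23 ± 0.09 (limma adjusted p = 0.0419) went with an exact permutation p of 0.0571. NARS no longer passed without vehicle replicate 2, 3 or 4 or JIB-04 replicate 2, 3 or 4 (limma adjusted p of 0.0711 to 0.108). KARS had a log2 fold change of -0.11 ± 0.04 (limma adjusted p = 0.0302), turned to 0.05 with TPM, and no longer passed without vehicle replicate 2 or 3 or JIB-04 replicate 2 or 4 (limma adjusted p of 0.0664 to 0.0823). HARS, LARS, RARS, SARS and TARS, the enzymes for histidine, leucine, arginine, serine and threonine, did not pass the test, with 95% intervals of -0.09 to 0.08, -0.05 to 0.19, -0.11 to 0.21, -0.12 to 0.04 and -0.26 to 0.04 for the log2 fold change.

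**Figure D1:**
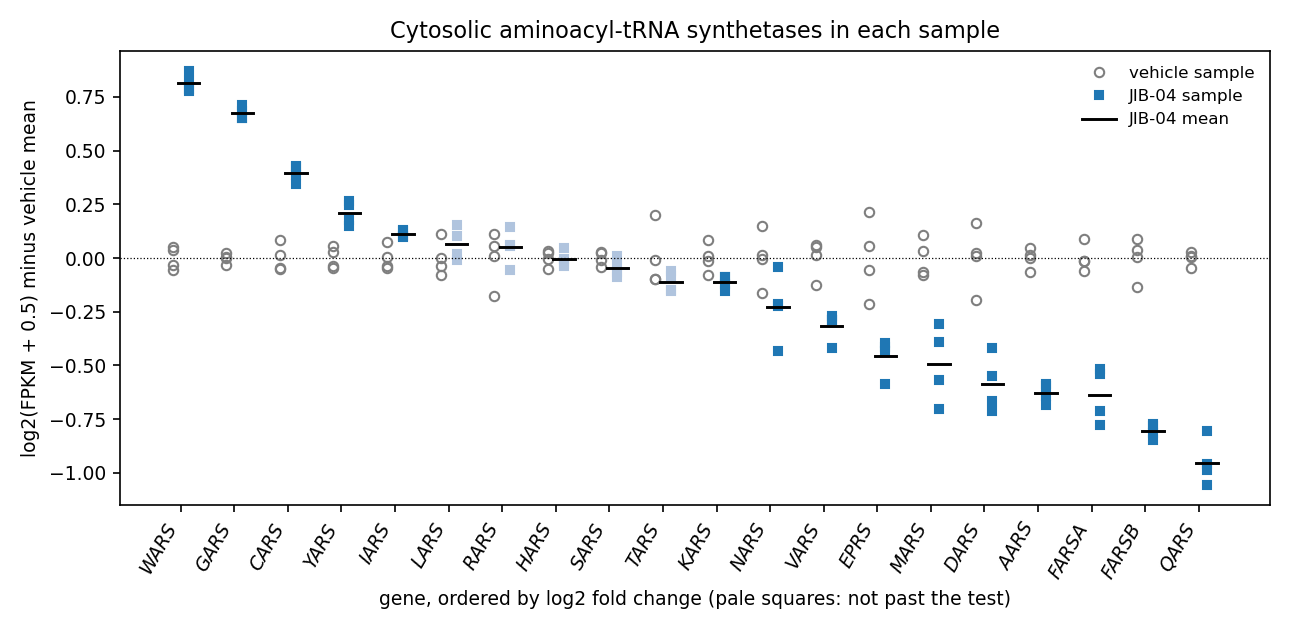
Cytosolic aminoacyl-tRNA synthetase genes in each sample. The vertical axis is log2(FPKM + 0.5) minus the vehicle mean of that gene, open circles are vehicle samples, squares are JIB-04 samples (pale where the gene did not pass the test) and bars are JIB-04 means. WARS, GARS and CARS sit at 0.81, 0.68 and 0.40, and QARS lies lowest at -0.95.

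These changes reordered the cytosolic enzymes by FPKM. In vehicle MARS was the most abundant at 479 ± 29.7 FPKM (SD, n = 4), above the next genes NARS, KARS and IARS, whose samples overlapped each other. With JIB-04, GARS was the most abundant at 474 ± 9.82 FPKM, apart from IARS in the next place, and WARS moved from place 13 to place 3, where its samples overlapped those of LARS in the next place. MARS was then at 342 ± 41.8 FPKM in place 5, and its samples overlapped those of LARS above it and of KARS below it. CARS was last in vehicle, and FARSB was last with JIB-04.

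Of the 8 cytosolic enzymes in the multi-synthetase complex, IARS was the sole higher gene while DARS, EPRS, KARS, MARS and QARS were lower (KARS not with TPM) and LARS and RARS did not pass (1 higher, 5 lower, 2 not passed, median log2 fold change -0.29). Of the 12 enzymes outside the complex, 4 were higher, 5 lower and 3 short of the threshold, with a median of -0.08. Synthetases also fall into a pair of unrelated catalytic folds, called class I and class II. Class I held 4 higher and 3 lower of 9 cytosolic genes and class II held 1 higher and 6 lower of 10, EPRS being left out because it carries both folds. Among mitochondrial genes, class I held 1 higher and 6 lower of 9 and class II held 2 higher and 3 lower of 7. These counts stand beside 34.2% higher and 38.0% lower of all genes tested. None of these differences between small classes was tested. All 3 scaffolds of the complex passed the test: AIMP2 was lower (log2 fold change -0.73 ± 0.05, limma adjusted p = 5.52e-07), EEF1E1 was lower (-0.32 ± 0.07, limma adjusted p = 0.00244) and AIMP1 was higher (0.40 ± 0.11, limma adjusted p = 0.0101).

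Among the mitochondrial enzymes the deepest falls were in those for glutamate, serine and alanine. EARS2 (ENSG00000103356, chr16:23522014-23557731) was at 50.9, 57.1, 56.7 and 48.6 FPKM in vehicle and at 19.6, 22.9, 18.8 and 18.1 FPKM with JIB-04. JIB-04 samples averaged 37.2% of vehicle, with a log2 fold change of -1.41 ± 0.09 (limma adjusted p = 5.3e-07). SARS2 (ENSG00000104835, chr19:38915266-38930896) was at 82.1, 84.6, 75.8 and 67.3 FPKM in vehicle and at 31.2, 34.3, 24.4 and 28.2 FPKM with JIB-04 (log2 fold change -1.38 ± 0.11, limma adjusted p = 3.07e-06). AARS2 (ENSG00000124608, chr6:44299654-44313326) was at 25.7, 25.4, 23.6 and 23.6 FPKM in vehicle and at 10.8, 10.8, 9.69 and 9.49 FPKM with JIB-04 (log2 fold change -1.23 ± 0.07, limma adjusted p = 2.77e-07). The 3 genes, of 16, that were lower by at least 2-fold stand beside 11.8% of all genes tested.

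CARS2, for cysteine, was at 132, 137, 122 and 117 FPKM in vehicle and at 68.1, 69.8, 69.5 and 63.1 FPKM with JIB-04 (log2 fold change -0.90 ± 0.06, limma adjusted p = 1.02e-06). VARS2, for valine, was at 30.9, 33.5, 31.0 and 36.5 FPKM in vehicle and at 20.3, 19.2, 27.1 and 20.8 FPKM with JIB-04 (log2 fold change -0.59 ± 0.11, limma adjusted p = 0.000874). The third JIB-04 sample of VARS2 was the highest of its group and still below all vehicle samples. IARS2, PARS2, LARS2 and MARS2, for isoleucine, proline, leucine and methionine, were lower as well, with log2 fold changes of -0.55 ± 0.11, -0.54 ± 0.08, -0.37 ± 0.07 and -0.20 ± 0.05 and limma adjusted p of 0.00128, 0.000223, 0.00147 and 0.00647. The call of MARS2 was lost with TPM, where its log2 fold change was -0.04.

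The mitochondrial enzymes that rose were those for tyrosine, histidine and phenylalanine. YARS2 (ENSG00000139131, chr12:32727490-32755902) was at 81.3, 83.9, 86.8 and 80.7 FPKM in vehicle and at 114, 112, 121 and 121 FPKM with JIB-04 (log2 fold change 0.49 ± 0.04, limma adjusted p = 8.25e-06). HARS2 (ENSG00000112855, chr5:140691426-140699318) was at 31.6, 32.0, 32.9 and 31.0 FPKM in vehicle and at 45.3, 44.3, 43.0 and 40.9 FPKM with JIB-04 (log2 fold change 0.44 ± 0.05, limma adjusted p = 3.44e-05). For YARS2 and HARS2 the groups were far apart relative to their spread. FARS2 was at 17.8, 19.9, 18.7 and 17.2 FPKM in vehicle and at 22.1, 20.7, 21.5 and 20.7 FPKM with JIB-04 (log2 fold change 0.20 ± 0.06, limma adjusted p = 0.015). NARS2, RARS2, TARS2 and WARS2 did not pass the test, with 95% intervals of -0.03 to 0.32, -0.29 to 0.01, -0.23 to 0.06 and -0.30 to 0.14 for the log2 fold change.

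**Figure D2:**
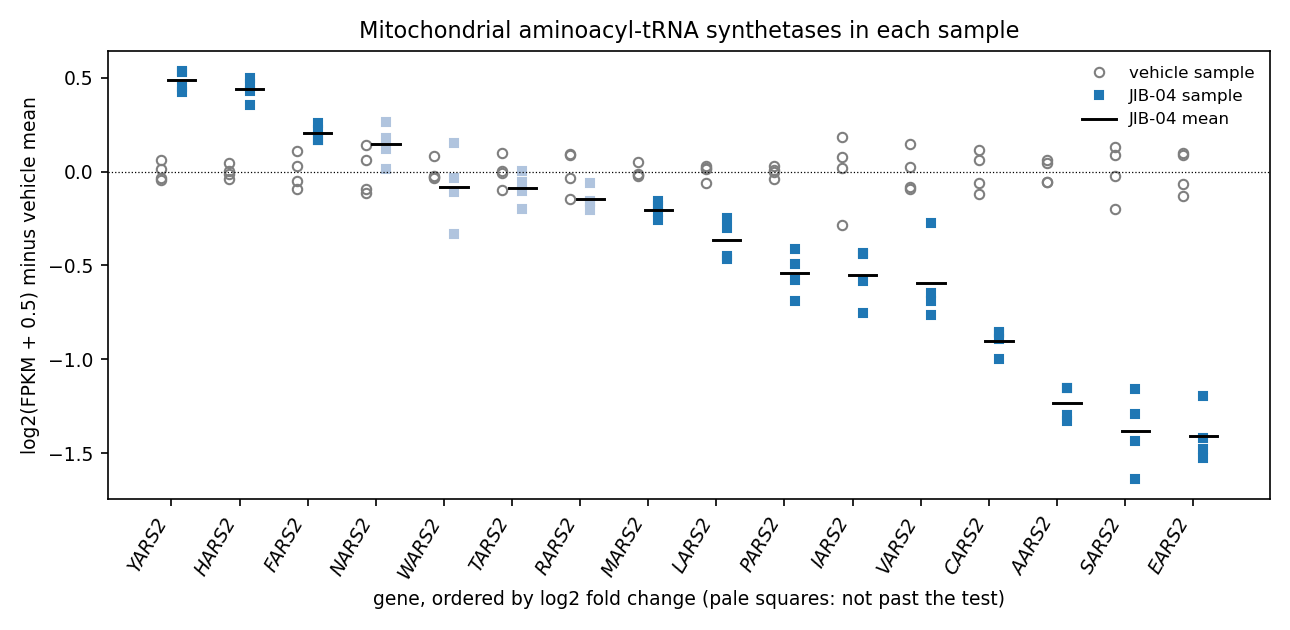
Mitochondrial aminoacyl-tRNA synthetase genes in each sample, drawn as for the cytosolic genes, with log2(FPKM + 0.5) minus the vehicle mean on the vertical axis. JIB-04 samples of EARS2, SARS2 and AARS2 lie near -1.41, -1.38 and -1.23, and those of YARS2 and HARS2 lie above their vehicle samples at 0.49 and 0.44.

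By level, CARS2 led the mitochondrial enzymes in vehicle at 127 ± 9.39 FPKM and overlapped IARS2 in the next place, whereas with JIB-04 YARS2 led at 117 ± 4.61 FPKM, apart from IARS2. SARS2 moved from place 4 to place 8 and EARS2 from place 6 to place 11. In vehicle their samples overlapped those of the gene in the place above, YARS2 for SARS2 and NARS2 for EARS2. With JIB-04, SARS2 overlapped TARS2 above it and VARS2 below it, and EARS2 overlapped FARS2 above it and WARS2 below it. PARS2 was the lowest in both groups, at 8.50 ± 0.178 and 5.69 ± 0.498 FPKM, apart from LARS2 above it.

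Enzymes of the cytosol and of mitochondria that use the same amino acid gave 17 pairs, in which EPRS and FARS2 each occur more than 1 time. The difference of the log2 fold changes (cytosolic minus mitochondrial) is given as a description, with its SE over samples. It was positive in 10 pairs and negative in 7, with a median of 0.19, and the ratio of the enzymes did not overlap between groups in 14 pairs, 8 above and 6 below vehicle. Of all single genes tested, 67.3% did not overlap between groups, and the share among ratios of other gene pairs was not computed. The most positive differences were for SARS and SARS2 (1.34 ± 0.13), CARS and CARS2 (1.30 ± 0.06), EPRS and EARS2 (0.95 ± 0.16) and WARS and WARS2 (0.90 ± 0.10). The most negative were for FARSB and FARSA with FARS2 (-1.01 ± 0.07 and -0.84 ± 0.09) and for HARS and HARS2 (-0.44 ± 0.04).

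The cysteine pair changed places. In vehicle, CARS was below CARS2 in every sample, with a log2 ratio of -1.18 ± 0.08 (SD, n = 4), and with JIB-04 CARS was above CARS2 in every sample, with a log2 ratio of 0.12 ± 0.09. In the other 16 pairs the cytosolic transcript was the more abundant in both groups by group means. The phenylalanine pairs moved the other way, from FARSB at 5.39 times the FPKM of FARS2 in vehicle to 2.66 times with JIB-04. The tyrosine pair rose on either side, with a log2 fold change of 0.21 for YARS and 0.49 for YARS2, and the alanine pair fell on either side, with -0.63 for AARS and -1.23 for AARS2.

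**Figure D3:**
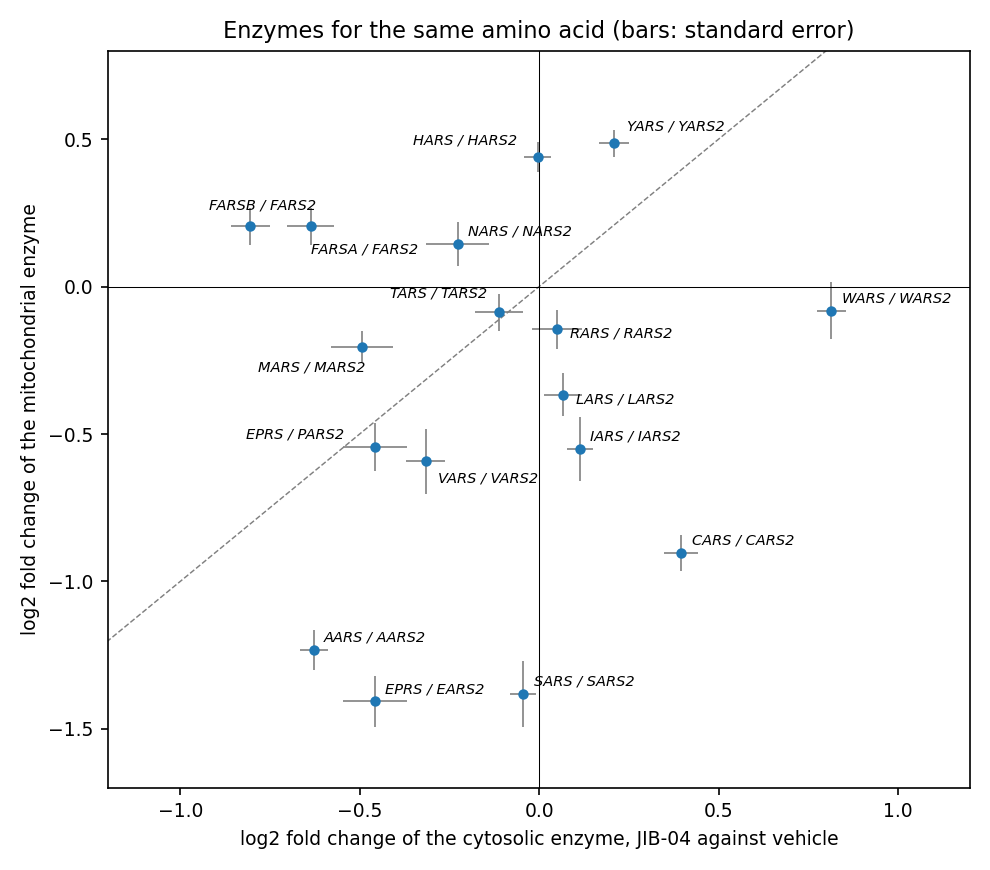
Log2 fold change (JIB-04 against vehicle) of the cytosolic enzyme on the horizontal axis and of the mitochondrial enzyme for the same amino acid on the vertical axis, with standard errors as bars and equality as a dashed line. CARS / CARS2 lies to the lower right at 0.40 and -0.90, and FARSA and FARSB with FARS2 lie to the upper left.

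HARS and HARS2 are neighbours that are read in opposite directions. Their RefSeq start sites on GRCh38.p14 are 85 bases apart, HARS at position 140691370 on the minus strand and HARS2 at 140691455 on the plus strand of chromosome 5. HARS was at 139, 138, 131 and 135 FPKM in vehicle and at 140, 133, 132 and 135 FPKM with JIB-04, whereas HARS2 was 1.36 times its vehicle mean. The stretch between the start sites is shown because the FPKM ratio of these neighbours did not overlap between vehicle and JIB-04. Capitals mark the letters CCGGAAGT on either strand, a spelling bound by the ETS family of factors to which Fli1 belongs. This motif was searched after the sequence had been seen.
HARS to HARS2 (chr5:140691370-140691455, plus strand): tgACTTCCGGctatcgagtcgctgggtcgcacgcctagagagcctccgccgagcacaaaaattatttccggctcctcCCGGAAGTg
The stretch of 86 bases holds CCGGAAGT 2 times, near either end. Apart from HARS and HARS2, which prompted the search, these letters occur in 6 of the 28 synthetase genes with a RefSeq promoter window (21.4%) and in 4.95% of all genes with a window, a window being the 250 bases before to 50 bases after a start site. A match describes the sequence and is not a measured binding site.

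Promoter windows were also searched for the letters TGATGNAA, which spell the C/EBP-ATF response element bound by ATF4 with its partners. Exact matches on both strands were found in 1217 of 27305 genes with a promoter window (4.46%), and in 3.62% of the 35116 windows. Among synthetases the windows of 7 of 16 cytosolic genes (43.8%) and of 1 of 14 mitochondrial genes (7.14%) held a match. DARS, LARS, VARS, YARS, AARS2 and VARS2 had no window. The matches are shown with 10 bases on either side, read 5′ to 3′ on the strand that spells the motif (capitals), because genes that rose and genes that fell both carry them.
AARS (chr16:70289676-70289703, plus strand): ctaacttggcTGATGCAActgcgagaaa
CARS (chr11:3057408-3057435, plus strand): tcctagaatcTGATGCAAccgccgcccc
GARS (chr7:30594835-30594862, minus strand): gctcggagcaTGATGAAAtcgccgcgta
IARS (chr9:92293693-92293720, plus strand): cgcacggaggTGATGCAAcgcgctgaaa
MARS (chr12:57488054-57488081, minus strand): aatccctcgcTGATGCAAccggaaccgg
NARS (chr18:57621805-57621832, minus strand): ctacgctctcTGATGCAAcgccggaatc
TARS (chr5:33440957-33440984, minus strand): ctggaccagcTGATGCAAtcgaaaggcg
YARS2 (chr12:32756077-32756104, minus strand): tccacactgcTGATGGAAaaattaagtt
CHAC1 (chr15:40953252-40953279, minus strand): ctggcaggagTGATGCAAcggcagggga
CHAC1, a glutathione-degrading enzyme and known ATF4 target, is added for comparison. Of the 12 genes of the amino acid response listed below, TGATGNAA was in the windows of ATF3, ASNS and CHAC1 alone (3 of 12, 25%), and CHAC1 was the sole gene of the 12 with TGATGCAA. The spelling TGATGCAA, contained in TGATGNAA and singled out after the matches were seen, was in 6 of the 7 cytosolic genes, GARS being the exception, and in 1.08% of all genes with a window.

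The shared letters did not go with a shared direction. Of the 7 cytosolic genes with a match, CARS, GARS and IARS were higher, AARS, MARS and NARS (not with TPM) were lower and TARS did not pass. Of the 9 with a window and no match, WARS was higher, EPRS, FARSA, FARSB, KARS (not with TPM) and QARS were lower and HARS, RARS and SARS did not pass. The median log2 fold change was -0.11 in either class. WARS, which rose the most, has none of these letters in its window, and YARS2, the mitochondrial gene with the largest rise, is the sole mitochondrial gene with a match. The absence of a match says only that these letters are not in this window.

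**Figure D4:**
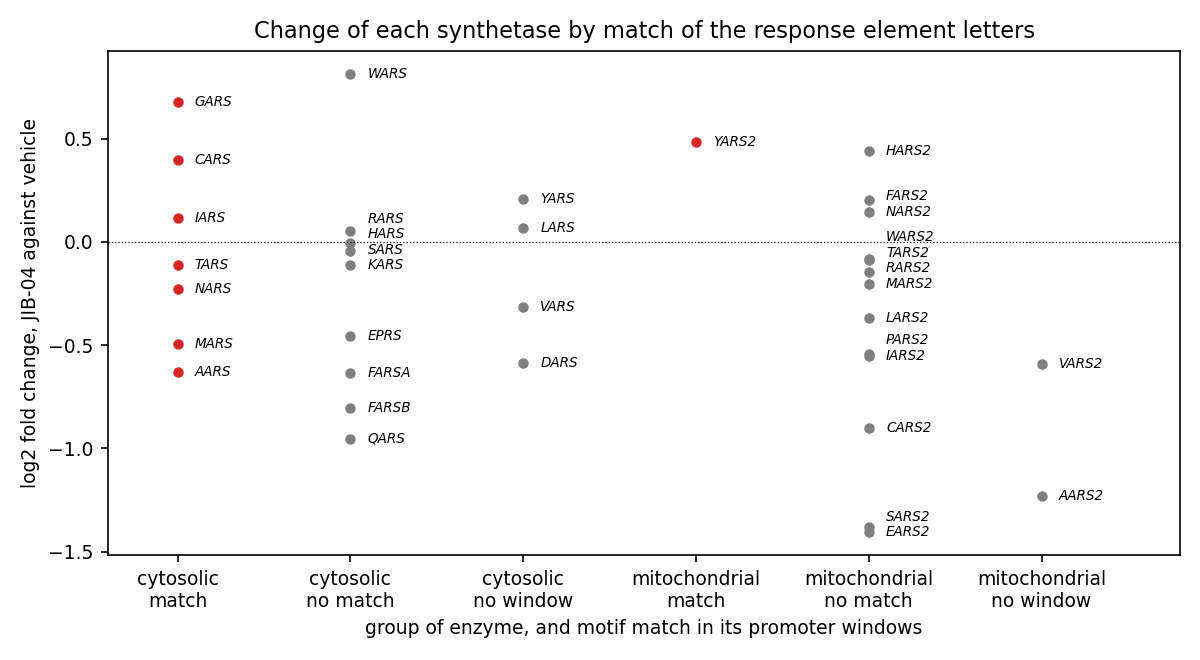
Log2 fold change of each cytosolic and mitochondrial synthetase gene, grouped by whether its RefSeq promoter window holds TGATGNAA, holds no match or is missing from the table. Cytosolic genes with a match span from -0.63 (AARS) to 0.68 (GARS), and those without one from -0.95 (QARS) to 0.81 (WARS).

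Other genes of the amino acid response included larger rises than any synthetase. The 12 regulators and targets were PPP1R15A, DDIT3, ATF3, ATF4, ASNS, CHAC1, TRIB3, SESN2, DDIT4, EIF2AK3, EIF2AK4 and CEBPB. Of these, 10 were higher, 1 lower and 1 short of the threshold, beside 34.2% higher and 38.0% lower of all genes tested. EIF2AK4 was the lower gene (log2 fold change -0.84 ± 0.06, limma adjusted p = 1.53e-06), and CEBPB did not pass (-0.17 ± 0.14, limma adjusted p = 0.305). The median log2 fold change of the 12 was 1.37, and 7 were higher by at least 2-fold (13.1% of all genes tested). PPP1R15A, which directs the phosphatase that reverses eIF2 alpha phosphorylation, was at 37.8, 35.8, 34.8 and 35.8 FPKM in vehicle and at 1017, 1076, 974 and 1008 FPKM with JIB-04 (log2 fold change 4.80 ± 0.04, limma adjusted p = 4.22e-11). DDIT3, the stress transcription factor CHOP, was at 69.2, 75.5, 78.8 and 77.5 FPKM in vehicle and at 690, 694, 684 and 676 FPKM with JIB-04 (log2 fold change 3.18 ± 0.05, limma adjusted p = 2.38e-10). ATF3 had a log2 fold change of 3.52 ± 0.09 (limma adjusted p = 3.05e-09). Named after their values were seen, ATF4 itself rose from 694 ± 24.4 to 1239 ± 21.2 FPKM (log2 fold change 0.84 ± 0.03, limma adjusted p = 4.35e-08), and its target ASNS, the asparagine synthetase, from 124 ± 6.10 to 150 ± 6.91 FPKM (0.28 ± 0.05, limma adjusted p = 0.000819). The log2 fold change of ATF4 was close to that of WARS and that of ASNS lay between those of YARS and CARS, whereas those of PPP1R15A, DDIT3 and ATF3 were well above any synthetase.

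Steps beside charging were also examined. In mitochondria, glutamine tRNA is first loaded with glutamate by EARS2 and then converted by an amidotransferase made of QRSL1, GATB and GATC, and MTFMT formylates the methionine of the initiator tRNA. MTFMT was at 37.9, 35.1, 37.6 and 36.9 FPKM in vehicle and at 14.1, 13.8, 13.3 and 13.3 FPKM with JIB-04 (log2 fold change -1.40 ± 0.05, limma adjusted p = 2.88e-08). GATB and QRSL1 were lower (log2 fold changes -0.71 ± 0.07 and -0.28 ± 0.10, limma adjusted p of 8.75e-06 and 0.0321), with overlap between groups for QRSL1, and GATC had a log2 fold change of -0.20 ± 0.12 (limma adjusted p = 0.168). EARS2 and MTFMT thus had close log2 fold changes, -1.41 and -1.40.

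Of the editing factors that clear wrongly charged tRNAs, DTD2 was lower by more than 2-fold (log2 fold change -1.13 ± 0.09, limma adjusted p = 2.21e-06), DTD1 was lower (-0.65 ± 0.09, limma adjusted p = 9.81e-05) and AARSD1 was higher (0.70 ± 0.07, limma adjusted p = 2.3e-05). PRORSD1P did not pass the filter on level. Of 10 genes for tRNA maturation and export, 8 were lower, 1 was higher and 1 fell short of the threshold, with a median of -0.65, beside 38.0% lower and 34.2% higher of all genes tested. The smallest adjusted p were for ELAC2, which trims the 3′ end of precursor tRNAs, and for TSEN15 and TSEN34, subunits of the tRNA splicing endonuclease, with log2 fold changes of -1.18 ± 0.07, -1.14 ± 0.07 and -1.04 ± 0.07.

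Of 6 cytosolic elongation factor genes, 5 were lower and 1 missed the threshold (median -0.40), beside 38.0% lower of all genes tested. The smallest adjusted p were for EEF1B2, EEF1D and EEF1G, subunits of the complex that recharges the tRNA carrier eEF1A with GTP, with log2 fold changes of -0.43 ± 0.05, -0.64 ± 0.09 and -0.25 ± 0.03. The largest fall among the 5 was that of EEF1D. Of 4 mitochondrial elongation factors, 2 were higher and 2 lower (median 0.08). TUFM and TSFM, which deliver charged tRNA and recycle that factor, fell by 0.73 and 0.41 on the log2 scale, and GFM2, used in ribosome recycling, had a log2 fold change of 0.69 ± 0.06. In the selenocysteine route, which builds its amino acid on the tRNA, 2 of 4 genes were higher (SEPSECS and SECISBP2, log2 fold changes 0.91 ± 0.15 and 0.24 ± 0.07), and EEFSEC was lower (-1.36 ± 0.10). None of these lists was tested as a whole.

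**Figure D5:**
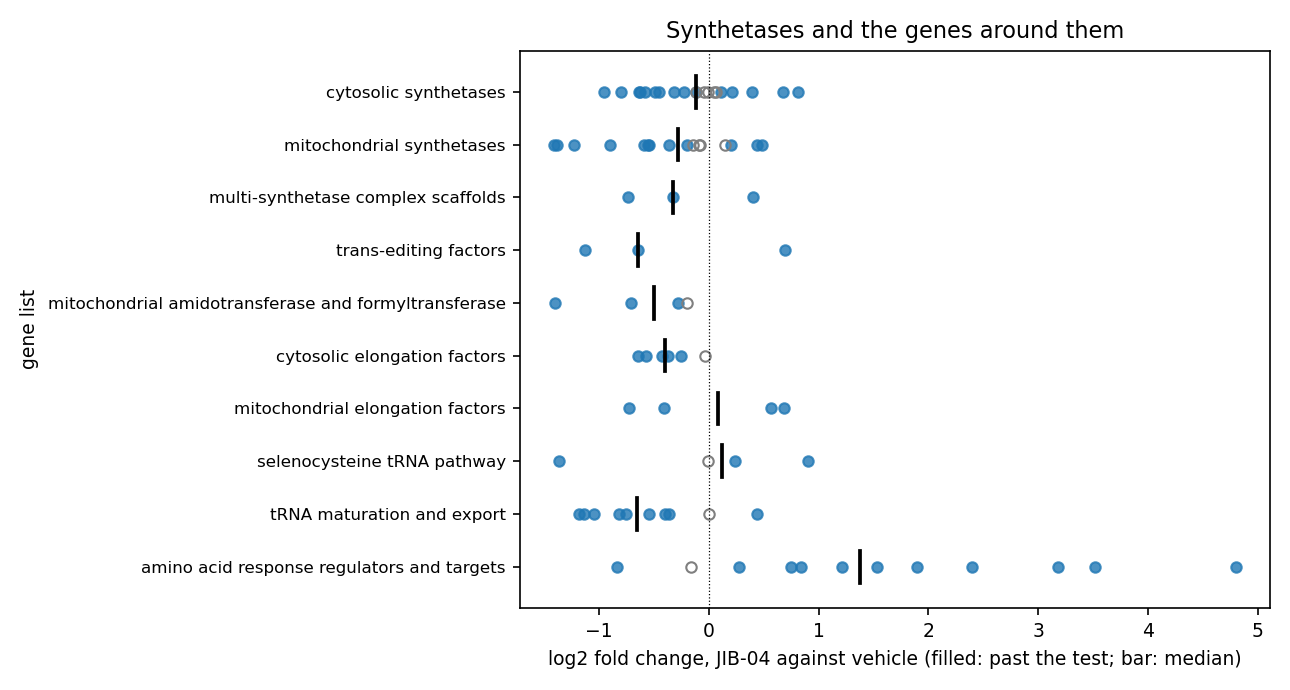
Log2 fold change (JIB-04 against vehicle) of every tested gene in the synthetase groups and the related lists, with each list's median marked. The amino acid response stands highest at a median of 1.37, tRNA maturation and export has a median of -0.65, and cytosolic and mitochondrial synthetases have medians of -0.11 and -0.28.

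Several synthetase genes share exon sequence with a neighbour in GENCODE 29. The paper's methods describe directional sequencing, but no source used here states whether the FPKM calculation took account of strand. Of the 36 genes, 20 have some exon overlap, above 20% of their exon bases in SARS2 and VARS2. SARS2 shares 46.2% with a same-strand transcript model, AC011455.2, and 10.8% with MRPS12 on the opposite strand, which went from 132 ± 8.32 to 82.2 ± 9.19 FPKM. VARS2 shares 22.0% with GTF2H4 on the same strand, which went from 40.8 ± 2.12 to 31.2 ± 0.231 FPKM. HARS2 shares 11.7% with HARS, and MARS shares 5.05% with DDIT3, which rose while MARS fell. The values of SARS2 and VARS2 are therefore uncertain to the extent that reads were assigned to the overlapping gene. Of 14 synthetase pseudogenes in the table, the most abundant was at 13.3 FPKM.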

How the data were processed

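RNA-seq of A673 cells gave 8 libraries, grouped by their titles into vehicle and JIB-04 (n = 4 each). Per the submitters' processing notes, GSNAP, SAMtools and Cufflinks with GRCh38 were used by the authors to make the deposited FPKM values, which were analysed as given. The labels give single-end reads of 151 bp and the paper's methods give 50 cycles. Mapped read totals are not given in the sources used here, so precision rests on the spread between samples.

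Entries of 117 identifiers were summed, 33 names turned into dates were restored, and 13 genes with a placeholder value were left out. No synthetase gene was touched by these steps. For 3 members with several identifiers (CARS with 2, VARS with 7 and VARS2 with 4) the highest mean was kept. The same was done for other listed genes, TSEN34 with 10 identifiers and EEF1D and PTPRC with 2 each. How reads were shared among these identifiers was not tested. Genes that averaged 1 FPKM or more were fitted on log2(FPKM + 0.5) with limma 3.58.1 (lmFit, eBayes with trend) in R 4.3.3, with Benjamini-Hochberg adjustment over 17460 genes and a threshold of 0.05. The fit was tested on simulated data. The exact permutation test was two-sided. The study's own test, an analysis of variance of FPKM, was 1 of 17 alternatives, with other pseudocounts, filters and scalings, a replicate block and each sample left out. Intervals are 95%.

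All members are accounted for. Values in every sample are given for the 5 largest rises and falls past the threshold in each group, and other lists are named by up to 3 genes with the smallest adjusted p, except where stated. ATF4, ASNS, EIF2AK4, CEBPB, HARS, MRPS12 and GTF2H4 were named after their values were seen, as was CHAC1. Members and lists were chosen with earlier results of these data known. GENCODE 29 gave positions and exon overlaps, and RefSeq promoters (GRCh38.p14) gave sequences. Tables were built in Python 3.11.15 with pandas 2.3.3 and numpy 2.4.6, and figures with matplotlib 3.10.9.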

Additional observations from a re-analysis of the deposited data

Results flagged for a closer look

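In 3 of 72 groups of 4 samples, 1 sample stood apart from the rest by Dixon's criterion, and chance alone marks about 1 in 20 such groups. VARS in JIB-04 replicate 1 was at 192 FPKM, below the other JIB-04 samples at 211 to 214 FPKM. MARS2 in vehicle replicate 3 was at 20.4 FPKM, above the other vehicle samples at 19.4 to 19.5 FPKM. WARS2 in vehicle replicate 1 was at 19.3 FPKM, above the other vehicle samples at 17.7 to 17.8 FPKM.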

How the results depend on the processing

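Across the 17 alternatives, the calls of 5 higher and 8 lower cytosolic and of 3 higher and 8 lower mitochondrial genes were the same in every one. The calls of KARS, NARS and MARS2 did not hold in every alternative. Of the 9 genes that did not pass in the main fit, HARS, LARS, RARS, SARS, NARS2 and RARS2 passed in some alternatives. TARS, TARS2 and WARS2 passed in none (smallest limma adjusted p of 0.0947, 0.128 and 0.133), and only the sign of their log2 fold change varied. With TPM the median log2 fold change was 0.081 for all genes, 0.051 for cytosolic and -0.12 for mitochondrial synthetases, and 9 cytosolic genes were higher. The values of HARS, KARS, SARS, TARS, RARS2, TARS2 and WARS2 turned to 0.16, 0.051, 0.12, 0.052, 0.018, 0.075 and 0.078, and HARS and SARS then passed. LARS, RARS and NARS2 passed at 0.23, 0.21 and 0.31, and NARS and MARS2 no longer passed. Without a filter on level the median of all genes was 0.024, with 8223 genes higher and 7293 lower, and NARS lost its call (adjusted p = 0.0852). With quantile normalization the cytosolic median was -0.040, KARS was 0.013 and SARS was 0.072, LARS passed (0.19) and NARS lost its call (adjusted p = 0.306). With median-ratio scaling HARS was 0.023, and KARS and NARS lost their calls (adjusted p = 0.15 and 0.059). NARS kept its call in 5 and KARS in 9 of the 17 alternatives. The cause of these differences was not tested beyond the shift of all genes.

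When each sample was left out in turn, 5 cytosolic genes stayed higher and 8 to 10 lower, and 3 to 4 mitochondrial genes were higher and 9 to 10 lower. The cytosolic median was -0.14 to -0.08 and the mitochondrial median -0.31 to -0.26. NARS lost its call without vehicle replicate 2, 3 or 4 or JIB-04 replicate 2, 3 or 4 (adjusted p 0.0711 to 0.108), and KARS without vehicle replicate 2 or 3 or JIB-04 replicate 2 or 4 (0.0664 to 0.0823). RARS2 passed without vehicle replicate 1 (-0.19) and NARS2 without vehicle replicate 2 (0.19). The log2 fold change of HARS was -0.022 to 0.0069, above 0 without vehicle replicate 1 or 2 or JIB-04 replicate 2 or 3. That of RARS was -0.0086 (without vehicle replicate 1) to 0.087, and that of WARS2 was -0.16 to 0.0027 (without JIB-04 replicate 2).

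Replicate numbers did not pair the samples: deviations of same-numbered samples correlated at 0.08, -0.06, 0.03 and -0.0024, and none correlated best with its own number. A fit with the replicate number as a block called 5900 genes higher and 6618 lower, and of the cytosolic genes 5 higher and 8 lower, without KARS (adjusted p = 0.076) and NARS (adjusted p = 0.0714). The analysis of variance lost NARS (adjusted p = 0.0889).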
